A study of Mus musculus with 9 samples.

Results

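Marrow neutrophils of wild type C57/B6 mice were kept with no other cells for 12 h at 0.5% fetal bovine serum (FBS), and their RNA was sequenced in bulk. The account below covers these 3 libraries, titled as biological replicates 1 to 3 and chosen by their label as cultured alone, of the 9 libraries in the co-culture experiment. The other 6 libraries, 3 per condition, came from neutrophils of the same kind, kept for the same time at the same serum level, in DMEM, with cells named PyMT-N or with cells named PyMT-M and then recovered by fluorescence-activated cell sorting. PyMT is the usual short name of the polyoma middle T oncogene, used to raise mammary tumours in mice, and the labels do not spell out N and M. Sorting is stated for the co-cultured cells and not for those cultured alone, so sorting and the presence of other cells cannot be told apart in any comparison between them. The labels give no age or sex and do not say whether a library came from 1 mouse or several, so the spread between replicates may be partly technical.

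Neutrophils are short-lived granulocytes that leave the marrow loaded with proteins they made earlier. Their granules are named by order of formation: primary (azurophil) granules carry myeloperoxidase and serine proteases and are filled at the promyelocyte stage, secondary (specific) granules carry lactoferrin and related proteins, and tertiary granules carry gelatinase. Mature cells lean on glycolysis and on the pentose phosphate pathway, which supplies the NADPH that the phagocyte oxidase turns into superoxide, and they hold few mitochondria. G-CSF, acting on the receptor Csf3r, drives their production, and the chemokine receptors Cxcr2 and Cxcr4 work in opposite directions on their release from the marrow.

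Levels are given as CPM, each count scaled to a common library total, for replicates 1, 2 and 3 in that order, called libraries 1 to 3, and genes are ranked against each other by CPM per kb of annotated exon. The libraries held 2698984, 3180382 and 1641049 counts, so that a limit of 3 counts, the most that a count of 0 allows, stood at 1.11, 0.943 and 1.83 CPM. Library 3 detected 11814 genes, and libraries 1 and 2 detected 15094 and 15900; thinned to its depth, libraries 1 and 2 still held 14141 and 14607. Library 3 stood apart from the other two: among the 5743 genes of mean CPM 16 or more, Pearson's r of log2(CPM + 1) across genes was 0.968 between libraries 1 and 2, and 0.794 between library 3 and each of them. Genes are not independent replicates, and these values describe the libraries only. Library 3 lay above both others in 37.1% of these genes and below both in 50.7%. Counts of list members highest or lowest in library 3 are to be read against these shares. Levels below are therefore mostly given per library, those of the ranking per length as mean ± SD, and a later paragraph describes library 3 by itself.

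The label was borne out by its markers. All 18 genes of a neutrophil identity list had counts, 14 of them at a mean of 100 CPM or more, and the list took 36797, 34831 and 25672 CPM. S100a8 and S100a9, the subunits of the calcium-binding protein calprotectin, stood at 10048, 9856 and 6375 CPM and 10840.0, 9973 and 7866 CPM. Csf3r stood at 4677, 4503 and 3249 CPM and Cxcr2, the receptor for neutrophil-attracting CXC chemokines, at 2305, 2094 and 1753 CPM. All 4 were lowest in library 3, and so were 11 others of the 18. By contrast Ly6g, the surface antigen commonly used to sort mouse neutrophils, was listed at only 45.2, 56.3 and 26.2 CPM, and G0s2 at 9, 20 and 0 counts.

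Counts were concentrated in few genes. The 10 highest took 17.9% to 23.5% of a library and the 1000 highest took 68.1% to 70.7%. A mean of 1000 CPM or more was reached by 101 genes, which together held 36.5% of the counts, and 12104 genes reached 1 CPM. By level per length the first named genes were mt-Rnr2, the large mitochondrial ribosomal RNA, at 54715 ± 22426 CPM per kb (SD, n = 3), S100a9 at 18314 ± 2929.8, Lyz2, which encodes lysozyme M, at 16740.2 ± 754 and S100a8 at 12622 ± 2979. S100a9 and Lyz2 did not differ beyond their spread. Below them came Ftl1 at 6671 ± 269 CPM per kb and, after mt-Co1, Actb at 3508 ± 249.9 and Fth1 at 3169 ± 729. Ftl1 and Fth1 encode the light and heavy chains of the iron store ferritin, and Actb encodes cytoplasmic actin.

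The next places by length went to genes of the cytoskeleton, lysosome and neutrophil surface. Coro1a, an actin regulator of leukocytes, stood at 2161 ± 252 CPM per kb, Tmsb4x, which binds actin monomers, at 2114 ± 51.6 and Psap, the precursor of the lysosomal saposins, at 1782 ± 255. Taldo1, the transaldolase of the pentose phosphate pathway, was the only enzyme of sugar metabolism among the 20, at 1543 ± 60.4 CPM per kb. S100a11, H2-D1 (a class I histocompatibility heavy chain), Retnlg, Eef1a1, Clec4d and Csf3r closed the 20, between 1148 ± 216 for Csf3r and 1438 ± 225 for S100a11. Of these, Retnlg, which encodes a resistin-like protein of granulocytes, differed most between libraries, at 1593, 1390.3 and 811 CPM per kb. Of the 20 highest by CPM without regard to length, 17 were shared with this ranking, and the 3 that were not were Lcp1, Nisch and Prdx1. Eef1a1, Prdx1, S100a11 and H2-D1 share long stretches with pseudogenes or relatives, so their levels are less certain. Fth1, Actb, Csf3r and Taldo1 also match other genes at 95% identity or more, over 82.3%, 61.8%, 43.6% and 37.3% of a transcript, and the same caution holds for them.

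**Figure D1:**
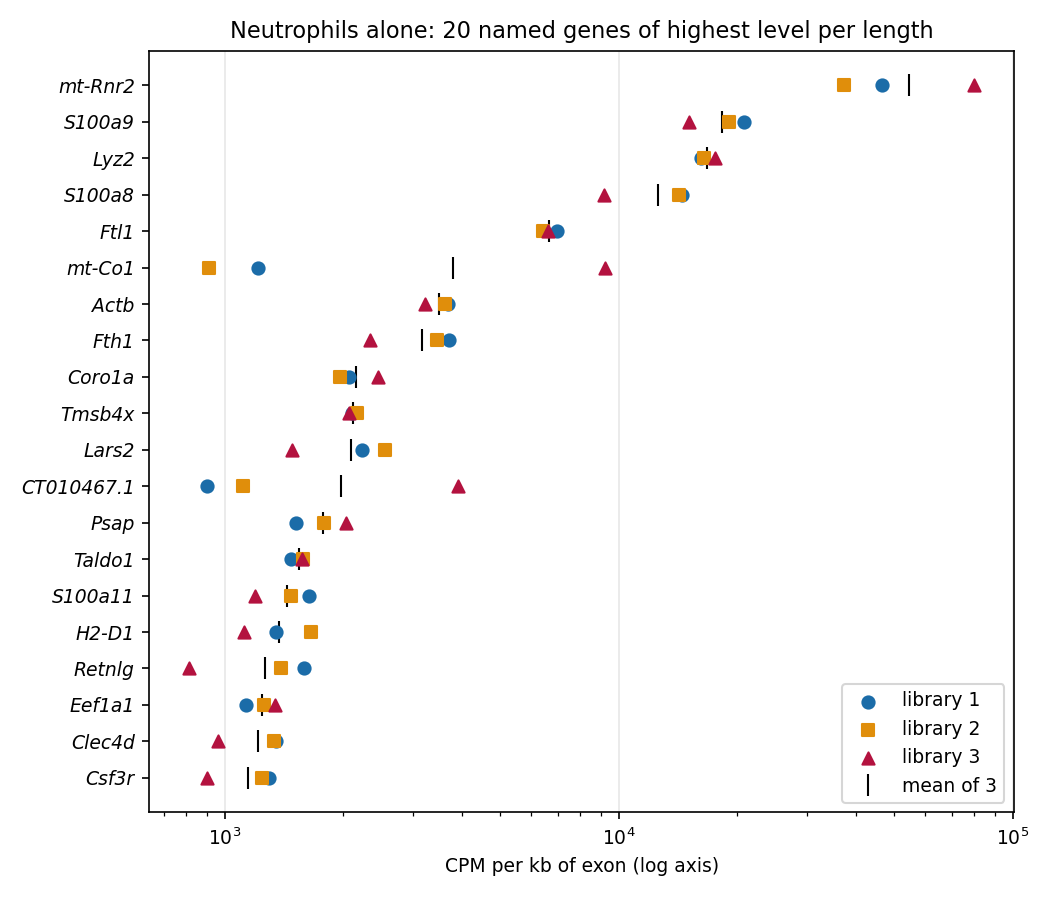
The 20 named genes of highest mean CPM per kb of exon in neutrophils alone; each symbol is 1 library, the bar is the mean of the 3, and the axis is logarithmic. mt-Co1 and CT010467.1 were far higher in library 3 than in libraries 1 and 2, whereas S100a9, S100a8, Fth1 and Retnlg were lowest there.

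Part of the top of the ranking rests on genes whose reads cannot be placed with certainty. The highest gene of all per length was Gm23935, a predicted model annotated as a miRNA, at 18087, 14347 and 11442 CPM, and 2 further models of the same length, Gm24270 and Gm24187, stood at 598, 653 and 519.8 and 229, 197 and 223 CPM. Their GENCODE M21 transcripts are printed here 5′ to 3′ because 3 of the 4 models in the set are identical over all 57 bases; the capital marks the only difference, G11A against Gm23935, counted from the 5′ end.
Gm23935 (GRCm38 chr16:11144125-11144181, plus strand): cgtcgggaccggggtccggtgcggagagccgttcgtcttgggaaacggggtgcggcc
Gm24270 (chr9:56223715-56223771, minus strand): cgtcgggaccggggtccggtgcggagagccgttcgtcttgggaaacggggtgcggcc
Gm24245 (chr4:139338304-139338360, plus strand): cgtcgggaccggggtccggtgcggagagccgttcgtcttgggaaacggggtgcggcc
Gm24187 (chr13:9834469-9834525, minus strand): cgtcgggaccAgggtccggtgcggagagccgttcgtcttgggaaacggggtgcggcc
Gm24245 had 4, 0 and 3 counts although its sequence is the same as that of Gm23935, so counts for single members of the set are uncertain. Lars2, the mitochondrial leucyl-tRNA synthetase, ranked second by CPM at 24756, 28362 and 16434, and 72 bases of its transcript match Gm15564, a gene on another chromosome, at 98.6% identity. Gm15564 itself stood at 904, 1219 and 1429.6 CPM, so the level of Lars2 is uncertain too. Lyz2 shares 1264 bases at 95.8% identity with its neighbour Lyz1, which was listed at 62.2, 31.8 and 34.7 CPM, and Ftl1 shares 910 bases at 99.6% with the pseudogene Ftl1-ps1.

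S100a8 and S100a9 are neighbours on chromosome 3 and both stood among the 5 highest named genes per length. S100a8 (GRCm38 chr3:90668978-90670035, plus strand) and S100a9 (chr3:90692632-90695721, minus strand) are encoded on opposite strands. Their RefSeq promoters (GRCm38.p6, 250 bases before to 50 after the annotated start) are shown to let the pair be compared, with 2 motifs in capitals: TATAAA, the letters of a TATA box, and GGAAGT, the core letters of sites for ETS factors such as PU.1, searched on both strands and read on the gene's own strand here (as ACTTCC in S100a8).
S100a8 (chr3:90668821-90669120, plus strand): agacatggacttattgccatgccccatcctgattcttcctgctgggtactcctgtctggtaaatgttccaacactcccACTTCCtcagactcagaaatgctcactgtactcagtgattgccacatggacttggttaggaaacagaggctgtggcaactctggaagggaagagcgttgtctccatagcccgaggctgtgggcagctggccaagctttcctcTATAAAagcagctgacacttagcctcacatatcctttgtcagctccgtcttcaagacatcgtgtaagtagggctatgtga
S100a9 (chr3:90695672-90695971, minus strand): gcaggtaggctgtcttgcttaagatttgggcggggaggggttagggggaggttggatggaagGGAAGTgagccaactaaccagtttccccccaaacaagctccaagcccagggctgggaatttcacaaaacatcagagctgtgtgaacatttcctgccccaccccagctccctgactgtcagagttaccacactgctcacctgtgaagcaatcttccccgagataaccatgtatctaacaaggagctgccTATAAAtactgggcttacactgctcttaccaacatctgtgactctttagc
Counted from the start that RefSeq gives, TATAAA begins at -30 in S100a8 and at 1 in S100a9, and GGAAGT at -172 and -188. TATAAA occurs in 13.6% of all 32851 promoters of the table and in 22.6% of the 93 promoters found for 81 of the 100 protein-coding genes of highest level per length. The shares for GGAAGT were 23.8% and 30.1%. The motifs were chosen after these promoters had been read, and a match is a description, not a site.

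All 12 genes of a list of granulocyte transcription factors had counts, with sums of 3320.1, 3331 and 3539 CPM. Their cell source in bulk RNA was not tested. Klf6 led at 1260.1, 1141 and 1052 CPM, followed by Mxd1, an antagonist of MYC that marks late granulocytes, at 946, 1012 and 1260.2 CPM. Spi1, which encodes PU.1, stood at 267, 308 and 384 CPM, and Max, the partner of Mxd1, at 325, 365 and 248.6 CPM. Irf8 was listed at 96.3, 119 and 183 CPM and Klf2 at 104, 97.5 and 169 CPM, both highest in library 3. Mxd1 and Spi1 were highest there as well, while Max and Klf6 were lowest.

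Secondary granule transcripts exceeded tertiary and primary ones: the mean sum per kb was 21706 CPM for secondary, 1217 for tertiary and 574 for primary genes, with medians per gene of 222, 41.6 and 22.8. Without regard to length, the 18 secondary granule genes summed to 33361, 31532 and 32984 CPM, the 7 tertiary genes to 5076, 5174 and 3333 CPM and the 12 primary genes to 1322, 1318 and 1171 CPM. Lyz2 made up most of the secondary sum, at 21247, 21696 and 23147 CPM. Mmp8, neutrophil collagenase, stood at 2471, 2339.7 and 1373 CPM, Ltf, lactoferrin, at 1981, 1292 and 1570.3 CPM and Cybb, the large subunit of the oxidase in the granule membrane, at 1286, 1199 and 1628 CPM. Lcn2, the siderophore-binding lipocalin, and Ngp, neutrophilic granule protein, were listed at 1255, 923 and 1012 and 1170.4, 837 and 1069 CPM. Secondary granule transcripts were not all lowest in library 3: 4 of the 18 members were above and 9 below both other libraries.

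Tertiary granule genes were led by Mmp9, gelatinase B, at 3312, 3044 and 2323 CPM, and by the metalloprotease Adam8 at 982, 1143 and 489.9 CPM. The metal transporter Slc11a1 stood at 453, 639 and 325 CPM, the membrane protease Mmp25 at 166, 160.0 and 89.0, and the urokinase receptor Plaur at 123, 141 and 62.8 CPM. In library 3, 6 of the 7 were below both other libraries and none was above. Among secretory vesicle genes the formyl peptide receptors Fpr2 and Fpr1 stood at 981, 1014 and 924 and 331, 386 and 316 CPM, while Alpl, Mme and Vnn1 had no count in any of the 3 libraries.

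Primary granule genes had counts in every case, but the proteins that name the stage were low. The highest members were genes that other cells and stages also use: Srgn, the proteoglycan that packs granule contents, at 369.8, 299 and 232 CPM, Gstm1, a glutathione transferase, at 212, 396 and 225 CPM, and Cd63, a granule membrane tetraspanin, at 298, 338 and 191 CPM. Ctsc, the protease that activates granule serine proteases, stood at 146, 114 and 177 CPM, and their inhibitor Serpinb1a at 105, 72.0 and 154 CPM. Mpo, myeloperoxidase, had 142, 99 and 76 counts, or 52.6, 31.1 and 46.3 CPM. The serine proteases Prtn3 and Elane, named here after their values were seen, were listed at 43.7, 21.1 and 42.0 and 32.2, 16.7 and 9.14 CPM.

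**Figure D2:**
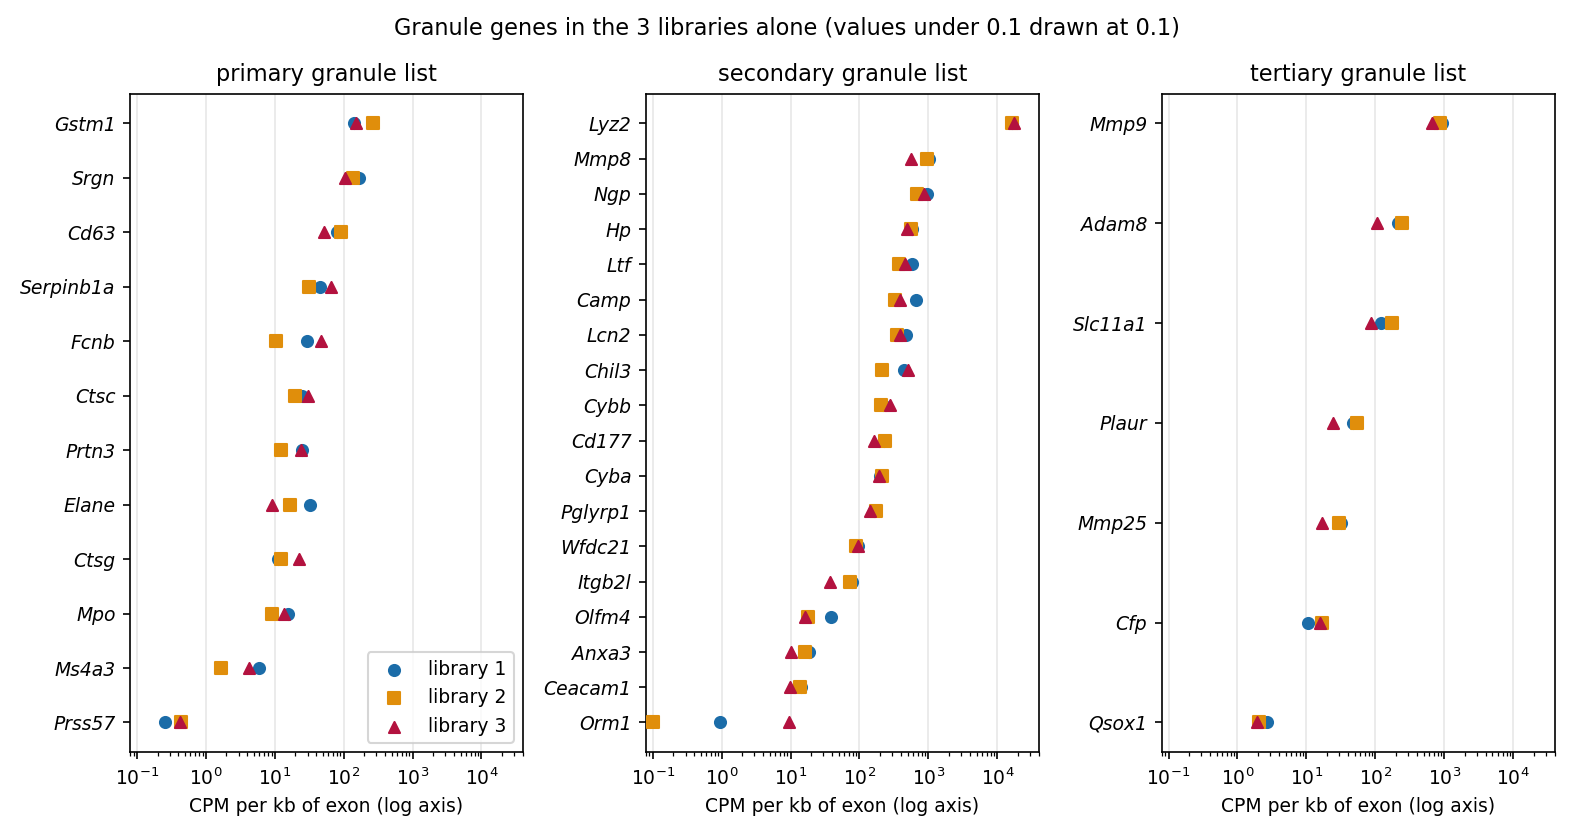
CPM per kb of exon for the members of the 3 granule lists in the libraries of neutrophils alone, on logarithmic axes; each symbol is 1 library. Lyz2 exceeds every other member, the serine proteases and Mpo lie below 100 CPM per kb, and Adam8, Plaur and Mmp25 are lowest in library 3.

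A few receptors for chemoattractants led their lists. Cxcr2 took most of the chemokine receptor list, which summed to 2961, 2642 and 2333 CPM over 13 genes. Ccr1 stood at 363, 276 and 208 CPM, Cxcr4 at 116, 93.4 and 90.8 CPM and Ccr2, the chemokine receptor of inflammatory monocytes, at 119, 110.0 and 112 CPM. Ccr7, a receptor of lymphocytes and dendritic cells, was listed at 22.6, 26.4 and 81.7 CPM and Cx3cr1, a receptor of monocytes, at 10.004, 23.0 and 32.9 CPM, each highest in library 3. Other attractant receptors were led by Hcar2, the receptor for nicotinic acid and ketone bodies, at 1298, 1053 and 631 CPM, and by Fpr2, given above. Ptafr, the receptor for platelet-activating factor, followed at 842, 846 and 874 CPM. The complement C5a receptors C5ar1 and C5ar2 stood at 589.9, 522 and 411 and 128, 151 and 108 CPM.

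All 24 cytokine receptor genes had counts, with a sum of 8469, 8693 and 7239 CPM to which Csf3r gave the most. Csf2rb, the shared chain of the GM-CSF and IL-3 receptors, stood at 528, 642 and 613 CPM and Il18rap, a chain of the IL-18 receptor, at 572, 494 and 377 CPM. The TNF receptor Tnfrsf1a stood at 389.8, 432 and 257 CPM, lowest in library 3, and its counterpart Tnfrsf1b at 237, 252 and 442 CPM, highest there. Csf1r, the M-CSF receptor of monocytes, was listed at 183, 253 and 408 CPM.

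Receptors for microbes were mostly C-type lectins and a few Toll-like receptors. Clec4d, which recognises mycobacterial lipids, stood at 2153, 2137 and 1536 CPM, Clec4e (Mincle) at 593, 429.5 and 338 CPM, Clec4n (Dectin-2) at 307, 423 and 302 CPM and Clec7a (Dectin-1) at 335, 273 and 366 CPM. Tlr13, which senses bacterial ribosomal RNA, was the highest Toll-like receptor at 819, 753 and 784 CPM, with almost the same level in all 3 libraries, whereas Tlr3 had no count. Trem3 stood at 328, 253 and 267 CPM. Fc and inhibitory receptors were led by Lilr4b at 2443, 2086 and 1164 CPM, Sirpa, the receptor for the Cd47 signal, at 1015, 1129 and 924 CPM and Clec4a2 at 737, 657 and 630.1 CPM. Cd300lb and Fcgr3, a low-affinity IgG receptor, stood at 688, 702 and 389 and 522, 601 and 349 CPM, and Clec12a at 381, 322 and 481 CPM. Lilr4b is the neighbour of the related gene Lilrb4a, so that counts of the pair may be split between them.

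Adhesion genes were led by a leukocyte integrin chain. Itgb2, the beta chain of the leukocyte integrins, stood at 1421, 1478 and 1018 CPM and the hyaluronan receptor Cd44 at 969, 810.3 and 793 CPM. The alpha chain Itgal was listed at 636, 732 and 385 CPM, Selplg, the ligand of P-selectin, at 254, 254 and 219 CPM and Cd47 at 202, 213 and 257 CPM. All members had counts, and 9 of the 13 were lowest in library 3.

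The list sums of sugar metabolism were high and fairly even across libraries. The 20 glycolysis genes summed to 10186, 9806 and 9745 CPM and the 7 genes of the pentose phosphate pathway to 6492, 7359 and 6399.6 CPM. Gapdh stood at 1998, 1892 and 2046 CPM, Aldoa at 1716, 1703 and 1384 CPM, Slc2a3, a high-affinity glucose transporter, at 1541, 1259 and 1148 CPM, Pkm at 1369, 1433 and 1143 CPM and Gpi1 at 642, 675 and 529 CPM. Single members were less even than the sums: Eno1, the enolase of the pathway, stood at 422, 438 and 1407 CPM, and Tpi1 ranged from 65.7 to 144 CPM. In the pentose phosphate pathway Taldo1 stood at 3198, 3433 and 3417 CPM, Pgd, a source of NADPH, at 2227, 2731 and 1618 CPM and Tkt, transketolase, at 725, 831 and 1038 CPM. G6pdx, the entry enzyme, was listed at 272, 303 and 266 CPM, followed by Rpe at 39.6, 25.5 and 38.4 and Rpia at 18.2, 28.3 and 12.8 CPM. The user of that NADPH, the oxidase, summed to 5146, 5023 and 5839 CPM over 6 genes, led by the cytosolic subunit Ncf1 at 1826, 1636 and 2434 CPM and followed by Cybb.

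Glycogen genes summed to 2250.1, 2242 and 1309.5 CPM, with 6 of the 8 members lowest in library 3 and none highest. Pygl, glycogen phosphorylase, stood at 1163, 1228 and 770.2 CPM and the UDP-glucose enzyme Ugp2 at 385, 364 and 207 CPM. Glutamine and serine genes were led by Glud1, glutamate dehydrogenase, at 671, 707 and 574 CPM, and fatty acid oxidation by Acsl1 at 225, 225 and 209.6 CPM, a level that differed little between the libraries. The 19 genes of the TCA cycle summed to 1458, 1562 and 1603 CPM and the 22 nuclear genes of the respiratory chain to 1481, 1695 and 2099.9 CPM. Mdh2 and Cs led the former at 222, 210.0 and 247 and 187, 199.7 and 230.3 CPM, and Cox4i1 led the latter at 380.1, 458 and 679 CPM.

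The mitochondrial genome gave 13 protein-coding genes of very unequal level. mt-Co1, cytochrome oxidase subunit 1, stood at 1878, 1411 and 14298 CPM, mt-Cytb at 114, 94.6 and 914 CPM and mt-Nd4 at 129, 97.2 and 735 CPM. mt-Co2 and mt-Co3, subunits of the same enzyme, had 5, 5 and 15 and 6, 4 and 31 counts, and mt-Atp6 had 14, 8 and 36. Those 3 have nuclear pseudogene copies that match 99.6% to 99.9% of their length at 100% identity: Gm28661 for mt-Co2, Gm28437 for mt-Co3 and Gm10925 for mt-Atp6. mt-Co1 matches its full-length copy Gm13340 at 97.6%, and its longest near-identical stretch, to Gm29216, covers 31.3% of it at 99.8%. Reads that fit equally well in 2 places may have been left uncounted, and no label states the counting rule, so the levels of mt-Co2, mt-Co3 and mt-Atp6 are uncertain. The same holds for mt-Nd4, which Gm28439 matches over 63.6% of its length at 100% identity. It also holds for mt-Nd3 and mt-Nd4l, matched over 99.1% and 99.0% of their length at 99.7% and 100%. In 12 of the 13 genes library 3 was above both others, and it exceeded the higher of them 7.61-fold for mt-Co1, 8.04-fold for mt-Cytb and 5.70-fold for mt-Nd4.

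Transcripts of activation were low to moderate. Of 17 cytokine and chemokine genes 16 had counts, with Il1b at 435, 391 and 502 CPM, Ccl6 at 292, 283 and 389 CPM and Il1rn, the interleukin-1 receptor antagonist, at 255, 186 and 393 CPM. Ccl9 stood at 96.7, 95.3 and 392 CPM, Ccl3 at 110.4, 133 and 92.6 CPM and Tgfb1 at 86.7, 113 and 104 CPM. Among immediate early and stress genes Txnip stood at 411, 407 and 469.8 CPM, the NF-kB inhibitor Nfkbia at 228, 208 and 359 CPM and Fos at 272, 227 and 171 CPM, followed by Zfp36 at 193, 185 and 255.9 CPM. The survival list was led by Mcl1, on which neutrophils depend, at 924, 879 and 951 CPM, and the death receptor Fas stood at 194, 168 and 169 CPM. The 16 interferon-stimulated genes summed to 576, 604 and 793 CPM, of which Ifitm3 gave 288, 303 and 300.4, and Rsad2 (viperin) stood at 28.5, 24.5 and 60.3 CPM.

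Markers of other marrow cells were present in traces and differed by lineage. B lineage markers summed to 530.2, 509 and 1165 CPM over 10 genes, all with counts and all highest in library 3. Ighm, the heavy chain of IgM, made up most of it at 406, 379 and 769 CPM, with Igkc at 17.8, 24.5 and 79.2, Cd79b at 21.5, 24.2 and 73.7 and Ms4a1 (CD20) at 32.6, 28.3 and 41.4 CPM. Early B cell genes were low: Rag1 had 16, 7 and 2 counts, and Vpreb1 1, 1 and 0. Basophil and mast cell markers summed to 348, 457 and 372 CPM, led by the proteases Prss34 at 147, 219 and 129.8 CPM and Cpa3 at 46.3, 70.4 and 66.4 CPM, with the basophil protease Mcpt8 at 42.2, 53.5 and 62.2 and the transcription factor Gata2 at 50.02, 50.9 and 83.5 CPM. Il4 had no count.

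Monocyte and macrophage markers summed to 525, 621 and 912 CPM, with Csf1r, F13a1 at 103, 119 and 156 CPM and Adgre1 (F4/80) at 41.5, 42.4 and 92.0 CPM, while C1qa of tissue macrophages had no count. The dendritic cell list summed to 259, 369.8 and 559 CPM, most of it in class II genes and their invariant chain, with Cd74 at 119.7, 165 and 219 and H2-Aa at 67.1, 88.7 and 176 CPM, which B cells share, and Xcr1 and Batf3 had no count. The plasmacytoid marker Siglech stood at 25.6, 16.4 and 34.7 CPM. Red cell genes were at 0: none of the 11 measured, Hba-a1 and Hbb-bs included, had a count in any of the 3 libraries. T and NK cell genes summed to 6.67, 2.52 and 0.609 CPM, with Cd3e, Trac and Ncr1 at 0 and 9 of 13 genes without a count. Eosinophil genes summed to 14.4, 6.603 and 10.4 CPM, platelet genes to 13.3, 47.5 and 9.14 CPM and stem and progenitor genes to 25.9, 33.96 and 20.1 CPM. In platelets the sum of library 2 came mostly from Ppbp, with 1, 81 and 0 counts.

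Endothelial, stromal and epithelial genes gave sums of 13.7, 12.3 and 15.2 and 8.89, 13.8 and 4.27 CPM, with Cdh5, Epcam and Krt14 at 0. Genes of dividing cells summed to 176, 202 and 197 CPM, and Mki67, the proliferation antigen, stood at 74.8, 80.2 and 102 CPM. In bulk RNA, few cells of a type and little RNA per cell cannot be told apart, so these sums are not shares of cells.

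**Figure D3:**
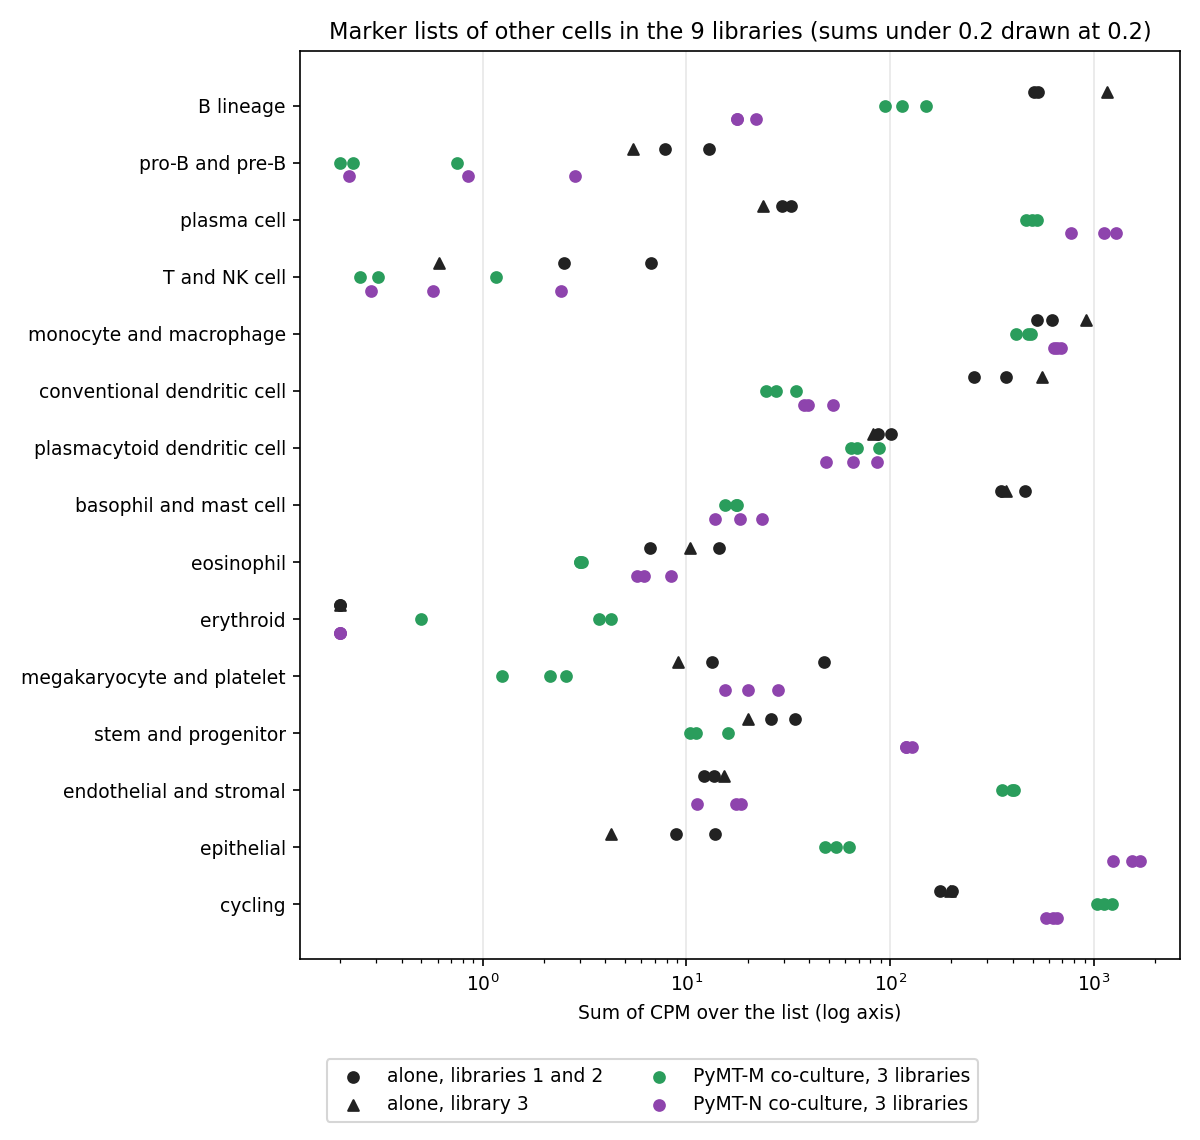
Sum of CPM over the marker list of each other cell type in the 9 libraries, on a logarithmic axis; black symbols are neutrophils alone (triangle for library 3), green PyMT-M and purple PyMT-N co-cultures. Red cell genes are at 0 in all libraries alone, B lineage, dendritic, and basophil and mast cell lists are higher alone than in either co-culture, and epithelial and cycling lists are lower alone.

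The co-cultures place the baseline in the study. The edgeR quasi-likelihood test with Benjamini-Hochberg adjustment over 12012 genes called 56% of them in PyMT-M co-culture against alone, 3380 higher (28.1%) and 3352 lower (27.9%) in co-culture. In PyMT-N co-culture against alone it called 53%, 3531 higher (29.4%) and 2830 lower (23.6%). With library 3 left out the counts were 3648 and 3857 for PyMT-M, and 3907 and 3275 for PyMT-N. The direction depends on the scaling: under library totals the split was 4571 higher and 1913 lower (PyMT-M) and 4315 and 2112 (PyMT-N), and under totals of 21 pan-leukocyte genes 7749 and 260, and 6864 and 873. The median gene moved by -0.03 (PyMT-M) and 0.12 (PyMT-N) in log2 under the main scaling, by 0.44 and 0.41 under library totals, and by 1.46 and 1.21 under pan-leukocyte totals. Both comparisons use the same 3 libraries alone. Counts of list members below are to be read against these counts over all genes under the same scaling.

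Co-cultured libraries also differed from those alone in markers of other cells. The epithelial list summed to 47.7 to 62.7 CPM with PyMT-M and 1239 to 1680.2 CPM with PyMT-N, and the stromal list to 355 to 405 CPM with PyMT-M and 11.3 to 18.5 CPM with PyMT-N, the latter near its level alone. Krt8, a keratin, was listed at 0.371, 0 and 0 CPM alone, 43.5, 58.5 and 51.7 CPM with PyMT-M and 353, 392 and 406 CPM with PyMT-N. Cycling genes summed to 1040.0 to 1231 and 584 to 661 CPM. The part of these transcripts in the results below was not tested.

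Interferon-stimulated genes were lower alone than in either co-culture. All 16 were called higher in each, also without library 3 and under both other scalings, with a median log2 difference of 3.04 (PyMT-M) and 4.56 (PyMT-N). Ifit3 stood at 7.41, 4.72 and 6.09 CPM alone, 829.9, 899 and 757 CPM with PyMT-M and 1287, 1198 and 1037 CPM with PyMT-N, groups that did not overlap. Its log2 difference was 6.599 ± 0.24 (SE, adjusted p = 1.6e-10) and 7.32 ± 0.24 (adjusted p = 1.9e-11). Rsad2 rose by 5.41 ± 0.27 and 6.99 ± 0.29.

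Primary granule genes were higher alone, except a few. All 11 tested fell in PyMT-M co-culture and 8 of 11 in PyMT-N, where 2 rose, both without and with library 3. Under pan-leukocyte totals 6 fell and 2 rose with PyMT-M, and 8 fell and 3 rose with PyMT-N. Mpo had 7 counts in the 3 PyMT-M libraries together and none with PyMT-N, which makes it at least 50.7-fold lower there against a limit of 3 counts per library. The log2 difference of Gstm1 was -3.16 ± 0.28 with PyMT-M (SE, adjusted p = 5.2e-07) and -3.82 ± 0.29 with PyMT-N (adjusted p = 6.4e-08). Ctsc and Srgn rose with PyMT-N, Ctsc by 1.79 ± 0.20 in log2 and Srgn to 1292, 1001 and 1049 CPM.

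Secondary granule genes were mostly called lower under the main scaling. With PyMT-N 13 of 18 fell and 2 rose, and with PyMT-M 11 fell and none rose. Under pan-leukocyte totals, however, 11 fell and 4 rose with PyMT-N, while 8 rose and none fell with PyMT-M, so the direction with PyMT-M depends on the scaling. Ltf stood at 1888, 1179 and 2237 CPM with PyMT-M, where it was not called, and at 56.0, 37.3 and 41.3 CPM with PyMT-N, a log2 difference of -5.46 ± 0.30 (adjusted p = 2.2e-09). Lyz2 fell to 9452, 7621 and 10075 CPM with PyMT-M and 3644, 2799 and 3277 CPM with PyMT-N. The summed level per kb of primary over secondary granule genes, which no scaling affects, was 0.0265 ± 0.0026 in neutrophils alone, 0.0257 ± 0.0036 after PyMT-M and 0.146 ± 0.011 after PyMT-N (SD, n = 3). The exact permutation p, two-sided, was 0.8 (adjusted 0.8) for PyMT-M and 0.1 for PyMT-N, the smallest that 3 against 3 allows (adjusted 0.16 over 8 comparisons of 4 such ratios). Few genes weigh on it: the primary list summed to 1951 to 2321 CPM with PyMT-N, above its sums alone although 8 of 11 genes fell, and Srgn and Ctsc gave most of that sum, Ctsc with 718, 529.7 and 583 CPM, while Lyz2 gave most of the secondary sum alone.

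Neutrophil identity genes had lower CPM in co-culture, a direction that also turns with the scaling. With PyMT-M 15 of 18 were called lower and 1 higher, and with PyMT-N 11 lower and 4 higher; under pan-leukocyte totals none was lower and 5 were higher with PyMT-M, and 4 were lower and 8 higher with PyMT-N. S100a8 stood at 5062, 4089.8 and 5164 CPM with PyMT-M and 4156, 3252 and 3681 CPM with PyMT-N, and its log2 difference from alone was -1.38 ± 0.18 (adjusted p = 1.9e-05) and -1.53 ± 0.18 (adjusted p = 5.8e-06) under the main scaling, but 0.18 and -0.45 under pan-leukocyte totals. Csf3r behaved likewise, at -1.40 ± 0.16 and -0.79 ± 0.16 against 0.13 and 0.29. Il1r2, the decoy receptor for interleukin-1, and Retnlg kept their direction with PyMT-N under each scaling: Il1r2 rose from 44.5, 27.7 and 33.5 CPM alone to 926, 663 and 712 CPM, and Retnlg fell from 945, 824 and 481 CPM to 41.1, 53.0 and 37.6 CPM.

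Of 24 cytokine receptor genes 20 were called lower and 2 higher with PyMT-M, and 10 lower and 6 higher with PyMT-N. Under pan-leukocyte totals these counts became 2 and 3, and 2 and 12. Of the 10 chemokine receptor genes tested, 7 fell and 1 rose with PyMT-M and 5 fell and 3 rose with PyMT-N, against 3 and 5, and 4 and 6, under pan-leukocyte totals. Cxcr4, the receptor that holds neutrophils in the marrow, fell under each scaling, with log2 differences of -2.29 ± 0.26 and -3.12 ± 0.28 under the main one. Among cytokine and chemokine genes 12 of 16 rose with PyMT-N and none with PyMT-M, where 6 fell; under pan-leukocyte totals 9 rose and 1 fell with PyMT-M. Ccl6 moved in opposite directions, to 109, 114 and 107 CPM with PyMT-M and 2936, 3796 and 3386 CPM with PyMT-N, and Il1a, with 0, 5 and 0 counts alone, reached 280.4, 399.9 and 438 CPM with PyMT-N.

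The ratio of glycolysis to pentose phosphate list sums differed between alone and co-culture without overlap. The summed level per kb of glycolysis over pentose phosphate genes was 1.13 ± 0.077 in neutrophils alone, 3.28 ± 0.17 after PyMT-M and 3.76 ± 0.15 with PyMT-N (SD, n = 3) (exact permutation p = 0.1 in each, the smallest possible, adjusted 0.16). The ratio of TCA cycle to pentose phosphate genes was 0.219 ± 0.033, 0.974 ± 0.12 and 0.690 ± 0.074 in the same order, with the same p-values. Few genes weigh on both ratios: per kb, Taldo1 gave most of the pentose phosphate sum in neutrophils alone. Taldo1, Pgd and Tkt fell in both co-cultures, with log2 differences for Taldo1 of -1.94 ± 0.14 and -1.64 ± 0.14 (adjusted p = 1.1e-07 and 2.4e-07). Under pan-leukocyte totals Pgd with PyMT-N missed the threshold, at -0.44 in log2. In all, 4 of 7 pentose phosphate genes fell in each co-culture, and 2 rose with PyMT-N; with pan-leukocyte totals 3 fell and 3 rose with PyMT-M, and 2 and 2 with PyMT-N. Of the 20 glycolysis genes 5 rose and 9 fell with PyMT-M, and 11 rose and 5 fell with PyMT-N, whereas under pan-leukocyte totals 14 rose and none fell, and 15 rose and 2 fell. That scaling called most of all 12012 genes higher, 7749 with PyMT-M and 6864 with PyMT-N, so a rise under it is not particular to this list. Ldha, lactate dehydrogenase A, rose from 435, 353 and 452 CPM alone to 1789.8, 1913 and 1481 CPM with PyMT-M and 1532, 1919 and 1746 CPM with PyMT-N, under each scaling. Slc2a3 stood at 1180.0, 997 and 733 and 135, 90.7 and 56.1 CPM in the co-cultures, and its fall with PyMT-M turned to 0.57 in log2 under pan-leukocyte totals.

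Nuclear genes of mitochondrial metabolism, where called, mostly rose with PyMT-M. Of 19 TCA cycle genes 9 rose and 1 fell with PyMT-M, and 4 rose and 3 fell with PyMT-N, and of 22 nuclear respiratory chain genes 9 rose and none fell with PyMT-M, and 7 rose and 2 fell with PyMT-N. Over all genes 28.1% rose and 27.9% fell with PyMT-M, and 29.4% and 23.6% with PyMT-N. The counts of both lists with PyMT-N were near or below those shares. Under pan-leukocyte totals, where most of all genes were called higher, no member of either list fell. There 19 TCA cycle and 22 respiratory chain genes rose with PyMT-M and 16 and 18 with PyMT-N. Idh3a rose from 9.63, 10.7 and 1.22 CPM alone to 74.2, 86.1 and 86.9 and 122, 113 and 120.2 CPM. The cycling list had 9 of 10 members higher with PyMT-M and 7 of 10 with PyMT-N, and no member lower in either. All 6 NADPH oxidase genes fell in each co-culture, but under pan-leukocyte totals none of the 6 was called with PyMT-M, and 1 fell and 2 rose with PyMT-N. Cybb fell with PyMT-N under every scaling, to 296, 184 and 258 CPM. Mitochondrially encoded genes turned on library 3: none of the 10 tested was called in either comparison by edgeR, and 0 had an unadjusted p under 0.05, while DESeq2 called 0 of 6 with PyMT-M and 1 of 6, lower, with PyMT-N, whereas without library 3 alone 8 were higher with PyMT-M and 4 with PyMT-N.

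**Figure D4:**
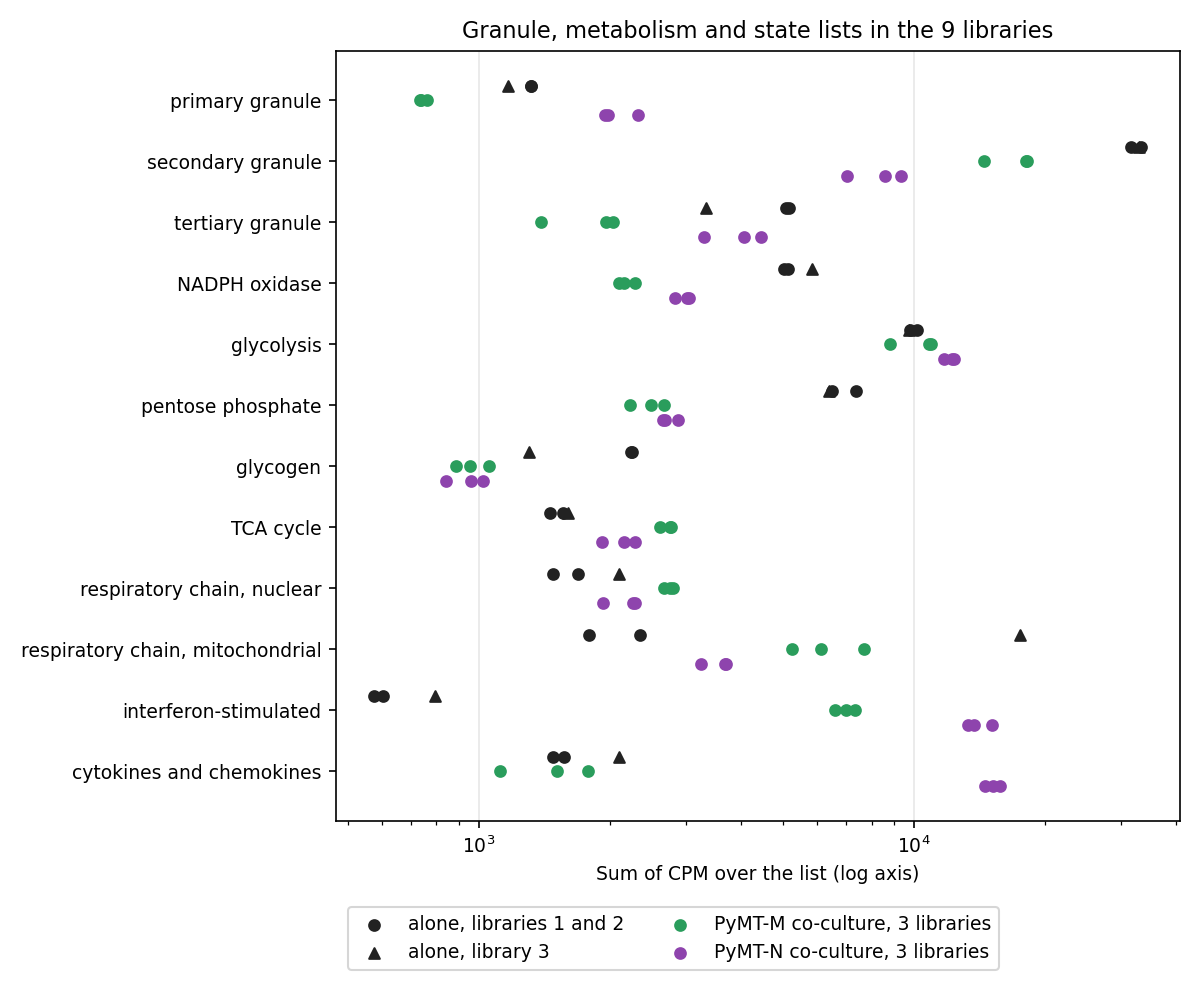
Sum of CPM over 12 lists in the 9 libraries, on a logarithmic axis; black symbols are neutrophils alone (triangle for library 3), green PyMT-M and purple PyMT-N co-cultures. Interferon-stimulated genes are lowest alone and pentose phosphate genes highest alone, and the mitochondrial respiratory chain list is far higher in library 3 than in libraries 1 and 2.

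B lineage, basophil and dendritic cell markers were higher alone than in co-culture. Of 9 B lineage genes tested 8 fell with PyMT-M and 9 with PyMT-N, and all 7 basophil and mast cell genes tested fell in each. All 7 were lower also under library totals, under pan-leukocyte totals and without library 3. Ighm fell to 139, 105 and 86.6 CPM with PyMT-M and 12.1, 9.98 and 14.1 CPM with PyMT-N, and Ms4a1 to 0, 0 and 0.612 and 2.25, 2.00 and 0 CPM. Prss34 fell to 6.49, 4.88 and 6.12 and 2.82, 5.70 and 2.65 CPM, a log2 difference of -5.34 ± 0.31 (adjusted p = 1.3e-08) and -5.79 ± 0.34 (adjusted p = 3.6e-09). Of 6 dendritic cell genes tested 5 fell in each co-culture, among them Cd74 and H2-Aa. Monocyte and macrophage genes were mixed, with 7 of 12 lower and 4 higher with PyMT-M, and 8 lower and 2 higher with PyMT-N. Under pan-leukocyte totals 3 were lower and 5 higher with PyMT-M, and 5 lower and 3 higher with PyMT-N. Only the co-cultured cells are stated to have been sorted, so the loss of these markers and the sort cannot be told apart.

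Library 3 was compared with the nearer of libraries 1 and 2, gene by gene, as a description of 1 library with no replicate of its own. Among the 5743 genes of mean CPM 16 or more, 283 (4.93%) lay beyond 4-fold, 128 higher (2.23%) and 155 lower (2.7%). The same count for library 1 was 9 and for library 2 it was 4. The excess was largest among low genes, at 7.69% of those between 16 and 64 CPM and 1.03% of the 97 highest genes. After all counts were thinned to the depth of library 3 the number was 287. The biological coefficient of variation, edgeR's measure of spread between replicates, was 49.5% over the 3 libraries alone and 20.1% without library 3, against 21.6% in PyMT-M and 20.8% in PyMT-N co-cultures.

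The genes highest in library 3 by this ratio were taken from those of mean CPM 16 or more, a mean that includes library 3. Their low counts in libraries 1 and 2 are thus in part fixed by the choice and are given as a description. Zfp667, a zinc finger gene, had 2, 0 and 146 counts, the immunoglobulin segment Igkv4-91 0, 0 and 108 and Dpm3, a subunit of dolichol phosphate mannose synthase, 0, 2 and 94. Cdk5rap1 had 8, 6 and 218 counts, Borcs5 10, 13 and 239, Accs 11, 10 and 180 and Fcrla, an Fc receptor-like gene of B cells, 14, 8 and 218. Cfap54, Slain1 and Rpp30 completed the 10, at 18.2, 16.4 and 15.6 times the higher of the other libraries. At the other end, Cd46 had 83, 79 and 2 counts, Bola2 66, 118 and 1, Cgrrf1 67, 82 and 1, Pign 64, 76 and 2 and Dguok, mitochondrial deoxyguanosine kinase, 75, 121 and 2. Ndufa7, Inpp5f, Slc35d2 and Brd9 likewise had 3 or 4 counts in library 3. Genes this low in library 3 reached the mean of 16 CPM only through libraries 1 and 2. Their contrast is thus also in part fixed by the choice and is given as a description.

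**Figure D5:**
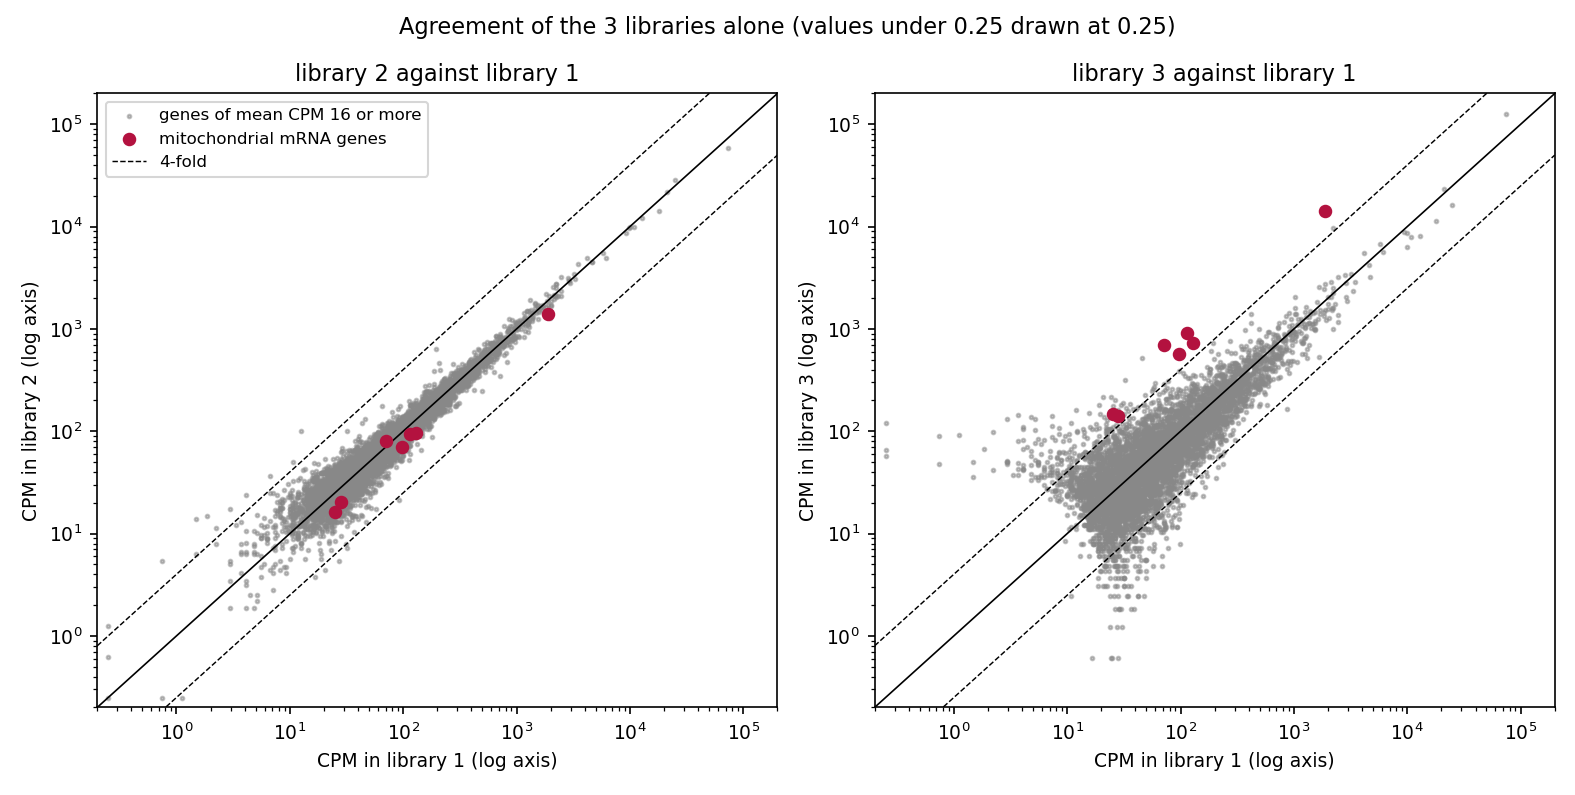
CPM of 5743 genes in library 2 (left) and library 3 (right) against library 1 of neutrophils alone, on logarithmic axes with the line of equality and 4-fold lines. Library 3 scatters widely among genes below 100 CPM, and its mitochondrial mRNA genes (red) lie above the 4-fold line.

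Groups of genes differed in library 3 as well. Mitochondrial mRNA made up 1.75% of its counts, against 0.235% and 0.180%, mitochondrial ribosomal RNA 12.7% against 7.41% and 5.94%, and the nuclear ribosomal RNA model CT010467.1 reached 2227, 2741 and 9671 CPM. CT010467.1 matches Gm42418 over 67.3% of a transcript at 100% identity, so its level is uncertain. Of the 20 named genes of highest CPM, library 3 exceeded the nearer library 1.71-fold for mt-Rnr2, 3.53-fold for CT010467.1 and 7.61-fold for mt-Co1, and at most 1.18-fold, in Coro1a, for the rest. Of 72 ribosomal protein genes of 16 CPM or more, 54 were above both other libraries and 10 below. All 10 B lineage genes and 14 of 22 nuclear respiratory chain genes were above both, and 15 of 18 neutrophil identity genes and 12 of 17 Fc and inhibitory receptor genes were below both. Over all 5743 genes of mean CPM 16 or more, 37.1% were above both and 50.7% below both. Gene length moved with the difference: the median log2 ratio of library 3 to the mean of the others was 0.04 in the fifth of genes with the shortest exons and -0.28 in the fifth with the longest, while between libraries 1 and 2 it stayed between -0.07 and -0.04. The part of length in these differences was not tested.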

How the data were processed

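RNA was sequenced in bulk from 3 libraries of neutrophils alone and 6 co-culture libraries, from 150 pg of RNA per the labels. The authors' deposited table holds raw counts per gene; STAR and the builds GRCm38 and mm10 are named per the submitters' processing notes, with counter, gene models and strandedness not given in the sources used here. Library totals were 1641049 to 4524563 counts. Limits of 3 counts cover counting error only. CPM are counts per library total, and exon lengths came from GENCODE M21 (37 of 54532 identifiers unmatched).

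Tests used edgeR 4.0.16 (R 4.3.3), quasi-likelihood, on all 9 libraries with TMM scaling, filterByExpr (minimum count 10) and Benjamini-Hochberg adjusted p under 0.05. They measure only the spread between these samples. All 9 libraries shared a single estimate of spread per gene. The biological coefficient of variation, however, was 49.5% alone and 21.6% and 20.8% in PyMT-M and PyMT-N co-cultures. SE and p-values therefore do not measure the spread of the libraries alone by themselves. In simulated data of the same depth, 94% (PyMT-M, 10398 genes) and 86% (PyMT-N, 10379 genes) of 4-fold changes and 14% of 2-fold changes in each were called. The simulation gave every gene and library the same spread, which the real libraries did not have, so these shares may differ in the real data. Shared sequence was found with BLAST+ 2.17.0. Alternatives were other size factors and filters, DESeq2 1.42.0, a replicate block, other denominators, thinning and leaving out each library.

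Named genes were the 20 highest by CPM and by CPM per kb, up to 6 highest members of each of 41 lists, the 10 genes most different in library 3 in each direction, and up to 3 called members of a list per direction; predicted models were left out but counted. The genes and lists were chosen with earlier results of these data known. Some genes that the rule names are not reported here.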

Additional observations from a re-analysis of the deposited data

How the results depend on the processing

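The count of genes called against neutrophils alone stayed within 1.5 times its main value in every alternative run. Leaving out 1 library at a time gave 5877 to 7505 calls for PyMT-M and 5603 to 7182 for PyMT-N, the highest without library 3 alone. The replicate block gave 6517 and 6101 calls. The deposited column names of the same replicate share a number across the conditions, which the labels do not explain and which may mean a common source. Deviations of same-numbered samples from their group means correlated at -0.0781 to 0.0285. With 3 samples per group that cannot show whether the samples are paired, and the main test took them as unpaired. DESeq2 called 6649 and 6594 genes. Of the 20 highest genes by CPM, 17 were among the 20 without library 3 and 20 without library 1 or 2. The 283 genes of library 3 beyond 4-fold became 38 at a mean CPM of 64 or more, where fewer genes were compared, and 1322 beyond 2-fold. Scaling by pan-leukocyte totals turned the sign of the log2 difference with PyMT-M for S100a8 (0.18), S100a9 (0.33), Csf3r (0.13), Cxcr2 (0.47), Retnlg (0.31), Ctsc (0.23), Srgn (0.90), Ltf (1.21) and Slc2a3 (0.57), and with PyMT-N for Csf3r (0.29) and Cxcr2 (0.63); the cause was not tested. These runs followed part of the named genes, with at most 60 results per run. Of their other results over all alternatives, 1053 kept their call or lack of one and 15 lost the call. A change of sign was counted only where either fit called the gene, so uncalled results may have changed direction. Ltf with PyMT-M, not called in either, went from -0.37 to 0.13 in log2 under library totals. At the depth of library 3, a gene needed 1.83 CPM to reach 3 counts.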
